A study of Mus musculus with 16 samples.

Results

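Lpl, Gpihbp1, Angptl4, Cd36, Fabp4, Slc27a1, Slc27a4, Vldlr and Acsl1, which together cover the release of fatty acids from circulating triglyceride and their entry into fat cells, were read across 16 libraries of mouse epididymal white adipose tissue. The 9 genes were taken by symbol from a count table of 45777 genes, and all 9 were among the 19189 genes with enough counts to be tested. They are grouped here by what they are known to do, and were chosen with earlier results of these data known.

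The tissue is the visceral fat pad beside the epididymis. The libraries formed 4 groups of 4, all from male mice that ate a high-fat diet, with 60% of its energy as fat, from 4 weeks of age on. A-LTA4HOE mice (OE), which overexpress leukotriene A4 hydrolase (Lta4h) specifically in adipocytes, and their control mice (Ctrl) were sampled at 20 weeks of age, when the diet had lasted 16 weeks, or at 8 weeks of age, when it had lasted 4 weeks. Age and diet duration therefore cannot be told apart, and with no group on another diet the diet itself was not tested. The promoter of the transgene is not named in the labels, which also do not say whether a library came from a single animal, so p-values measure the spread between these libraries.

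Total counts ranged from 33626901 to 67576994 per library. Lta4h averaged 268 ± 20.8 CPM (counts per library size after TMM scaling) in OE and 88.5 ± 5.37 CPM in Ctrl at 20 weeks, and 353 ± 77.9 CPM in OE and 89.7 ± 10.5 CPM in Ctrl at 8 weeks (SD, n = 4 each). In all, 5 libraries stood apart. OE replicate 1 at 20 weeks had a first principal component score of 22.4, against -96.6 to -66.7 in the rest of its age. OE and Ctrl replicate 1 at 8 weeks scored -19.5 and -29.9, against 68.8 to 125 in the rest of theirs. OE replicate 2 and Ctrl replicate 4 at 8 weeks carried the most transcripts of the epididymal duct. Their sums over 10 epididymal epithelium markers were 2431 and 3692 CPM. They are meant below by libraries with epididymal transcripts, though other 8-week libraries held some. Ctrl replicate 3 had 166 CPM, Ctrl replicate 2 had 13.3 CPM, and OE replicates 3 and 4 had 10.9 and 19.5 CPM. At 20 weeks the sum was 0.293 to 3.90 CPM in OE and 0 to 1.97 CPM in Ctrl.

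Lipoprotein lipase (LPL) is made and secreted by adipocytes and hydrolyses the triglyceride of chylomicrons and very low density lipoproteins at the capillary wall. GPIHBP1, an endothelial surface protein, carries LPL across the endothelial cell and holds it in the capillary lumen, and ANGPTL4 inactivates LPL. Freed fatty acids enter the adipocyte with help from CD36 and the transport proteins FATP1 (Slc27a1) and FATP4 (Slc27a4), are bound in the cytosol by FABP4, and are activated to acyl-CoA by ACSL1, which feeds them to triglyceride storage. VLDLR binds triglyceride-rich lipoproteins and brings them close to LPL.

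Promoter entries in RefSeq (build GRCm38.p6, mm10), windows of 250 bases before to 50 bases after a start site, were found for 5 of the 9 genes and gave 9 windows. Lpl, Gpihbp1, Angptl4 and Fabp4 had none. Each window was searched on both strands for AGGTCA, the core hexamer bound by many nuclear receptors, for the direct repeat of AGGTCA with 1 base between its copies, for the CCAAT box and for TATAAA. Of the 9 windows, 3 are shown, each 5′ to 3′ on its gene's strand, with matches in capitals. Those of Slc27a4 and Slc27a1 are given because Slc27a4 was called lower at 20 weeks in Ctrl and Slc27a1 was not called, and that of Cd36 because it was the only one of the 9 with AGGTCA.
Slc27a4, chr2:29802384-29802683, plus strand: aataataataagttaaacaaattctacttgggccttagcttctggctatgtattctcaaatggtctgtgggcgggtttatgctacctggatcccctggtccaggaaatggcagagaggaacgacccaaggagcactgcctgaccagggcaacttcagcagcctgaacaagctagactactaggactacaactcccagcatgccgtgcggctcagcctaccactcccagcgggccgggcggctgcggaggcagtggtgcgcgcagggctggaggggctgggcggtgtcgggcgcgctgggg
Slc27a1, first of 3 windows, chr8:71568621-71568920, plus strand: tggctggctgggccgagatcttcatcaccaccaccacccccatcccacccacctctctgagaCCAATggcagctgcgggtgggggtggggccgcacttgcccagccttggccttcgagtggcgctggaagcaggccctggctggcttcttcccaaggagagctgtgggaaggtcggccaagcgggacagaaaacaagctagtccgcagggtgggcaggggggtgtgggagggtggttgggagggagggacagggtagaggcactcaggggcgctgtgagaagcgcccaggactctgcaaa
Cd36, chr5:17835847-17836146, minus strand: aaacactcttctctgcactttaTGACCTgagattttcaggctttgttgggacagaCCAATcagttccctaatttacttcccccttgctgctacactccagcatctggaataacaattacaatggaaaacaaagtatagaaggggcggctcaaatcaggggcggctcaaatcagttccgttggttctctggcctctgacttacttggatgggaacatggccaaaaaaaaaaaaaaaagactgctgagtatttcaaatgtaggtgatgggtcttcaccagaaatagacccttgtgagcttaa

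The Slc27a4 window held none of the 4 motifs, and the Slc27a1 window held CCAAT from 188 to 184 bases before the start site. The Cd36 window held AGGTCA on the opposite strand, 228 to 223 bases before the start site, and CCAAT, 195 to 191 bases before it. CCAAT also occurred in the third Slc27a1 window, in the second Vldlr window and at 2 places in the second Acsl1 window, and the direct repeat and TATAAA were found in 0 of the 9 windows. Among all 32851 windows of this length, 16.3% held AGGTCA, 0.0396% the direct repeat, 37.4% CCAAT and 13.6% TATAAA. These letters are a description of the windows and say nothing of binding.

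Across the groups the genes spanned a wide range of levels, compared here in TPM, which account for transcript length. Fabp4, the cytosolic fatty acid carrier of adipocytes, ranked first of all genes in every group, at 24478 ± 6699 TPM in OE and 19760 ± 4212 TPM in Ctrl at 20 weeks, and at 28479 ± 4600 TPM in OE and 27295 ± 3081 TPM in Ctrl at 8 weeks (SD, n = 4 each). Lpl came next, between 3935 TPM in Ctrl at 20 weeks and 5046 TPM in Ctrl at 8 weeks, and ranked 20 to 24 of all genes. Cd36 followed at 3206 TPM in OE and 3143 TPM in Ctrl at 20 weeks, and at 2609 TPM in OE and 2523 TPM in Ctrl at 8 weeks. Libraries of Fabp4, Lpl and Cd36 did not overlap with each other within any group.

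Angptl4 and Acsl1 shared the next level and changed places between groups. Angptl4 had 774 ± 80.2 TPM and Acsl1 819 ± 290 TPM in OE at 20 weeks, which overlapped. Gpihbp1 and Slc27a1 formed the next pair, at 195 ± 56.6 and 236 ± 8.81 TPM in OE at 20 weeks, against 296 ± 39.7 and 189 ± 64.5 TPM in OE at 8 weeks. In OE the libraries of the 2 genes overlapped at both ages. In Ctrl Gpihbp1 lay below Slc27a1 at 20 weeks, at 121 to 184 TPM and 185 to 290.4 TPM, and above it at 8 weeks, at 274 to 312 TPM and 95.2 to 246 TPM, without overlap at either age. Vldlr and Slc27a4 were lowest, between 33.6 and 45.3 TPM for Vldlr and between 24.7 and 30.1 TPM for Slc27a4 in group means.

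**Figure D1:**
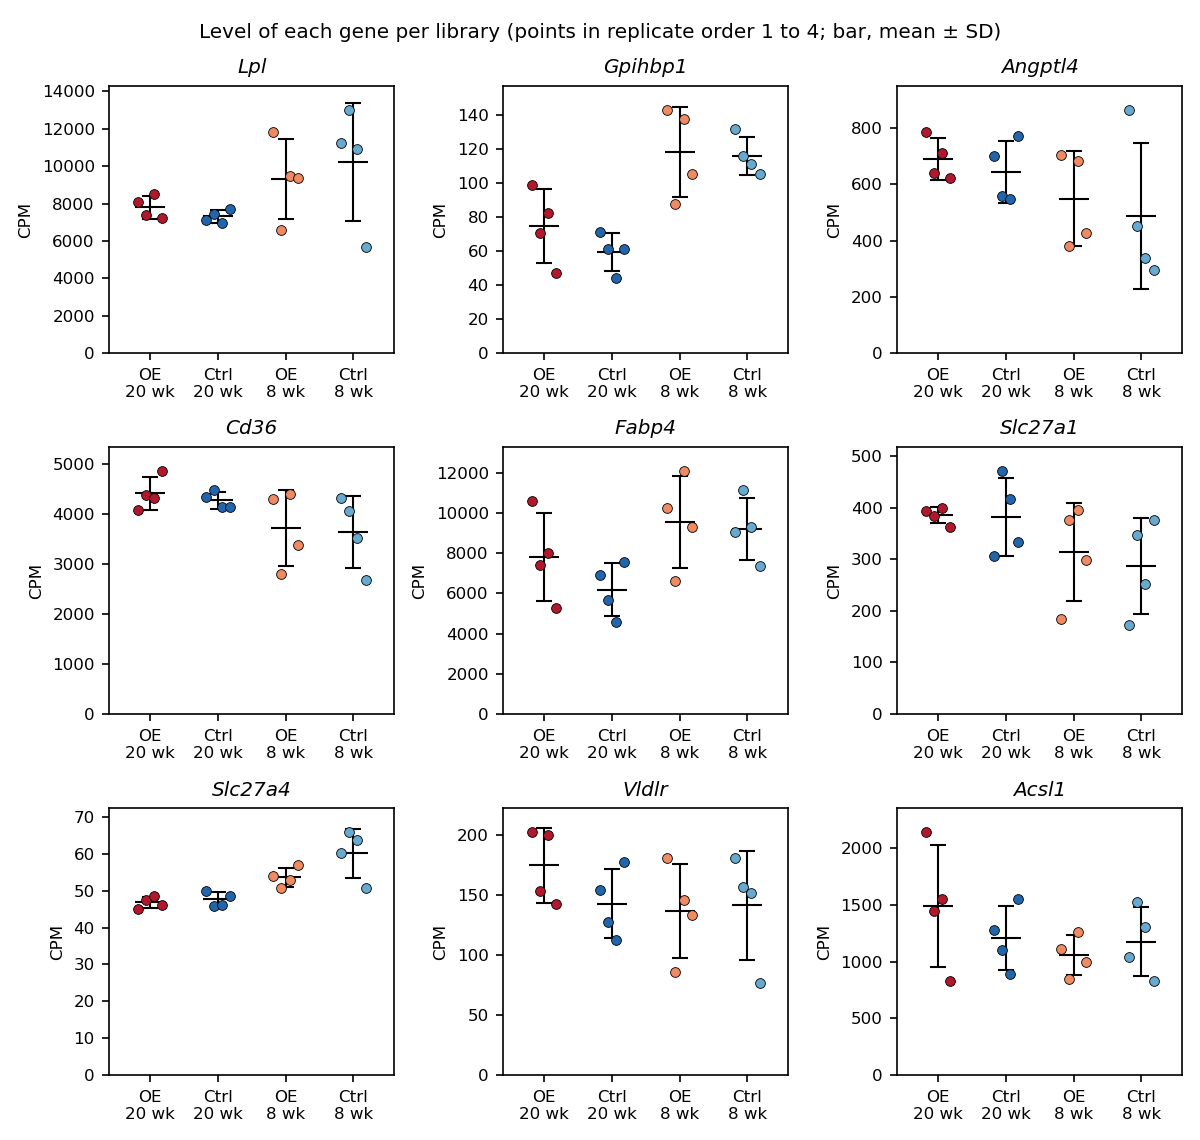
Each panel plots 1 gene in CPM, with 1 point per library in replicate order and the bar for the mean ± SD of 4 libraries, for OE and Ctrl at 20 weeks and OE and Ctrl at 8 weeks. Gpihbp1 and Slc27a4 sit lower at 20 weeks in Ctrl with no overlap, whereas OE and Ctrl overlap in all panels at both ages.

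At 20 against 8 weeks of age, with age and diet duration changing together, Gpihbp1 fell in both genotypes and Slc27a4 fell in Ctrl. Lpl, Cd36, Fabp4, Angptl4, Slc27a1, Vldlr and Acsl1 did not pass the test in either genotype. In OE 1 of the 9 genes was called lower and 0 higher at 20 against 8 weeks, beside 9.91% of all genes called lower, 13.1% called higher and 23% called in either direction. In Ctrl 2 of the 9 were called lower and 0 higher, beside 21.3% called lower, 19.6% called higher and 40.9% called in either direction. The test was edgeR's quasi-likelihood test with all 16 libraries in 1 fit and Benjamini-Hochberg adjustment over all genes, with calls at an adjusted p under 0.05. The shares called lower are close to those of all genes, so the counts do not set these genes apart. The median log2 fold change of the 9 was 0.25 in OE and 0.02 in Ctrl, against -0.03 and -0.05 over all genes tested.

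Gpihbp1, the capillary anchor of LPL (gene ID 68453, chr15:75596630-75598213), had 98.6, 70.8, 82.4 and 46.8 CPM in OE at 20 weeks, against 143, 87.5, 138 and 105 CPM in OE at 8 weeks. In Ctrl it had 71.0, 61.3, 44.1 and 61.3 CPM at 20 weeks, against 132, 116, 111 and 105 CPM at 8 weeks. All 4 Ctrl libraries at 20 weeks lay below all 4 at 8 weeks, as was so for 14.8% of all genes, whereas in OE replicate 1 at 20 weeks exceeded replicate 2 at 8 weeks. The level at 20 weeks was 0.631 times that at 8 weeks in OE (95% interval 0.461 to 0.863, log2 fold change -0.67 ± 0.21 SE, edgeR adjusted p = 0.0355) and 0.513 times in Ctrl (0.374 to 0.703, -0.96 ± 0.21, adjusted p = 0.00312). The call in OE was lost when any of several single libraries was left out, and in those fits the log2 fold change lay between -0.72 and -0.50. Without OE replicate 2, 3 or 4 at 20 weeks the adjusted p was 0.0921, 0.0558 and 0.0990. Without OE replicate 1, 3 or 4 at 8 weeks it was 0.0908, 0.102 and 0.0517. With only the OE groups in the fit it was 0.0892.

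Endothelial and adipocyte markers moved with Gpihbp1. Over all genes, 9.91% were called lower in OE and 21.3% in Ctrl. Of 10 endothelial markers, 2 fell in OE and 9 in Ctrl, with medians of -0.43 and -0.77 on the log2 scale, and their summed level ranged from 646 to 1311 CPM in OE and from 650 to 908 CPM in Ctrl at 20 weeks, against 1153 to 1567 CPM in OE and 1164 to 1519 CPM in Ctrl at 8 weeks. Relative to the endothelial list mean in the same library, Gpihbp1 stood at 0.01 ± 0.15 log2 units in OE and -0.02 ± 0.21 in Ctrl at 20 weeks, and at 0.16 ± 0.15 in OE and 0.19 ± 0.04 in Ctrl at 8 weeks (SD, n = 4 each). On that relative scale the ages overlapped in both genotypes. In bulk tissue, fewer cells of a type and less RNA per cell cannot be told apart.

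Lpl itself (gene ID 16956, chr8:68880555-68906932) had 8084, 7384, 8501 and 7223 CPM in OE at 20 weeks, against 11809.6, 6607, 9454 and 9383 CPM in OE at 8 weeks. Its Ctrl values were 7145, 7459, 6955 and 7705 CPM at 20 weeks, against 11219.5, 12992, 10945 and 5664 CPM at 8 weeks. The 8 libraries at 20 weeks lay close together, and in each genotype 3 of the 4 libraries at 8 weeks lay above all of them. The fourth, the one that carried the most epididymal transcripts, lay below them all. The coefficient of variation was 7.69% in OE and 4.54% in Ctrl at 20 weeks, and 22.8% in OE and 31.0% in Ctrl at 8 weeks. Lpl did not pass the test, with log2 fold changes of -0.26 ± 0.22 in OE (edgeR adjusted p = 0.419) and -0.48 ± 0.22 in Ctrl (adjusted p = 0.0960). In Ctrl it was called lower by DESeq2 (-0.48, adjusted p = 0.0426) and by limma voom (-0.65, adjusted p = 0.00137) with all libraries in the fit. Without both libraries with epididymal transcripts it was called lower, at -0.39 in OE (adjusted p = 0.0366) and -0.68 in Ctrl (adjusted p = 0.00133), and without Ctrl replicate 4 at 8 weeks alone it was called lower in Ctrl (-0.68, adjusted p = 0.00634). Other alternatives went the other way without a call. With 2 surrogate variables Lpl was at 0.16 in OE and 0.15 in Ctrl. With the mean of the mature adipocyte markers as a covariate it was at 0.20 in OE and 0.07 in Ctrl. These covariates varied with age themselves.

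Angptl4, the secreted inhibitor of LPL (gene ID 57875, chr17:33774900-33781575), went the other way in its means without passing the test. It had 785, 639, 710.0 and 623 CPM in OE at 20 weeks, against 703, 382, 682 and 428 CPM in OE at 8 weeks, and 701, 557, 548 and 771 CPM in Ctrl at 20 weeks, against 863, 452, 337 and 294 CPM in Ctrl at 8 weeks. The groups overlapped in both genotypes, and the highest 8-week value in each genotype was that of replicate 1, one of the libraries that stood apart. The log2 fold change was 0.33 ± 0.30 in OE (edgeR adjusted p = 0.439) and 0.41 ± 0.30 in Ctrl (adjusted p = 0.286). Without Ctrl replicate 1 at 8 weeks, Angptl4 was called higher at 20 weeks in Ctrl, at 0.84 (adjusted p = 0.0120).

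The ratio of inhibitor to enzyme transcripts, chosen after the values were seen and given without a test, was 0.188 ± 0.0127 in OE and 0.187 ± 0.0277 in Ctrl at 20 weeks, against 0.125 ± 0.0232 in OE and 0.103 ± 0.0447 in Ctrl at 8 weeks (Angptl4 TPM over Lpl TPM, SD, n = 4 each). In OE the lowest 20-week ratio, 0.178, lay above the highest 8-week ratio, 0.154. In Ctrl the lowest 20-week ratio, 0.159, lay just below the ratio of 0.164 in replicate 1 at 8 weeks, and the other 8-week ratios were 0.111 or lower. The ratio of Gpihbp1 to Lpl TPM was 0.0471 ± 0.0118 in OE and 0.0404 ± 0.00712 in Ctrl at 20 weeks, against 0.0637 ± 0.00710 in OE and 0.0613 ± 0.0215 in Ctrl at 8 weeks, with overlap in both genotypes. The share of other gene pairs whose ratios do not overlap is not given here.

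**Figure D2:**
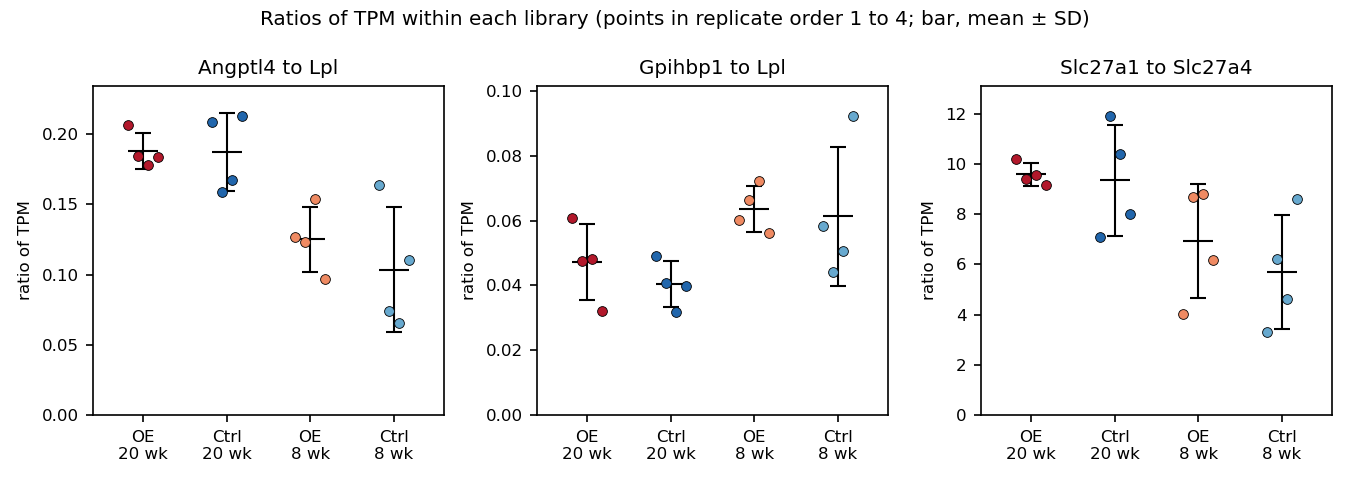
Ratios of TPM within each library (no unit), 1 point per library and bars for mean ± SD of 4, for OE and Ctrl at 20 weeks and OE and Ctrl at 8 weeks. The Angptl4 to Lpl ratio averages 0.188 in OE and 0.187 in Ctrl at 20 weeks, above the means of 0.125 in OE and 0.103 in Ctrl at 8 weeks.

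Among the proteins that handle lipoproteins and fatty acids at the adipocyte surface, Slc27a4 passed the test with age in Ctrl, and Cd36, Slc27a1 and Vldlr passed it in neither genotype. Slc27a4 (FATP4, gene ID 26569, chr2:29802634-29817522) had 45.1, 47.6, 48.6 and 46.0 CPM in OE at 20 weeks, against 54.0, 50.9, 52.9 and 56.9 CPM in OE at 8 weeks. In Ctrl it had 49.9, 45.8, 46.3 and 48.6 CPM at 20 weeks, against 60.3, 65.9, 63.8 and 50.9 CPM at 8 weeks. The 20-week libraries lay below all 8-week libraries in both genotypes, as was so for 9.5% of all genes in OE and 14.8% in Ctrl. Groups without overlap in either direction made up 22.3% of all genes in OE (12.9% higher) and 33.2% in Ctrl (18.5% higher). The level at 20 weeks was 0.873 times that at 8 weeks in OE (95% interval 0.781 to 0.975, log2 fold change -0.20 ± 0.07, edgeR adjusted p = 0.0719) and 0.792 times in Ctrl (0.708 to 0.885, -0.34 ± 0.07, adjusted p = 0.00320). In OE it was called lower by DESeq2 (adjusted p = 0.0261), by limma voom (adjusted p = 0.0132) and without Ctrl replicate 4 at 8 weeks (adjusted p = 0.0201). The difference between the genotypes in this change was 0.14 ± 0.11 on the log2 scale (adjusted p = 0.982).

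Slc27a1 (FATP1, gene ID 26457, chr8:71568728-71587307), the insulin-responsive transport protein of fat and muscle, had 394, 384, 399.7 and 364 CPM in OE at 20 weeks, against 185, 376, 396 and 299 CPM in OE at 8 weeks. In Ctrl it had 306, 471, 416 and 335 CPM at 20 weeks, against 173, 348, 252 and 377 CPM at 8 weeks. The ages overlapped in both genotypes, and the lowest value in each 8-week group was that of replicate 1. The log2 fold change was 0.30 ± 0.25 in OE (edgeR adjusted p = 0.407) and 0.41 ± 0.25 in Ctrl (adjusted p = 0.199). The ratio of Slc27a1 to Slc27a4 TPM, also chosen after the values were seen, was 9.58 ± 0.446 in OE and 9.34 ± 2.21 in Ctrl at 20 weeks, against 6.91 ± 2.27 in OE and 5.68 ± 2.27 in Ctrl at 8 weeks, without overlap in OE and with overlap in Ctrl. For this ratio too, the share of other gene pairs without overlap is not given.

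Cd36, the fatty acid translocase (gene ID 12491, chr5:17781690-17888959), had an SD of 0.234 log2 units over the 16 libraries, against 0.166 for Slc27a4, 0.327 for Lpl and 0.388 for Fabp4. It had 4069, 4386, 4327 and 4852 CPM in OE at 20 weeks, against 4289.7, 2806, 4390.5 and 3384 CPM in OE at 8 weeks, and 4345, 4486, 4133 and 4131 CPM in Ctrl at 20 weeks, against 4318, 4061, 3510.0 and 2689 CPM in Ctrl at 8 weeks. The lowest values, 2806 CPM in OE and 2689 CPM in Ctrl, belonged to the 8-week libraries with epididymal transcripts. The level at 20 weeks was 1.19 times that at 8 weeks in OE (95% interval 0.929 to 1.51, edgeR adjusted p = 0.294) and 1.17 times in Ctrl (0.919 to 1.497, adjusted p = 0.276).

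Vldlr, the receptor that docks triglyceride-rich lipoproteins (gene ID 22359, chr19:27216480-27254231), had 202, 153, 199.97 and 142 CPM in OE at 20 weeks, against 181, 85.6, 146 and 133 CPM in OE at 8 weeks. The Ctrl libraries had 154, 127, 112 and 177 CPM at 20 weeks, against 181, 156, 151 and 76.3 CPM at 8 weeks. The ages overlapped in both genotypes, and the library with the most epididymal transcripts was again the lowest of each 8-week group. The log2 fold change was 0.35 ± 0.26 in OE (edgeR adjusted p = 0.339) and 0.02 ± 0.26 in Ctrl (adjusted p = 0.968). Vldlr overlaps the long noncoding RNA Gm35438 and Acsl1 overlaps Gm31050 in the RefSeq annotation, and the strand setting of the counting is not given in the sources used here.

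Inside the cell, Fabp4 (gene ID 11770, chr3:10204342-10208616) had 10566, 7411, 7985 and 5260.0 CPM in OE at 20 weeks, against 10256, 6589.8, 12068 and 9288 CPM in OE at 8 weeks. In Ctrl it had 6934, 5683, 4569 and 7542 CPM at 20 weeks, against 9045, 11112, 9284 and 7334 CPM at 8 weeks. Both comparisons overlapped, in Ctrl only through replicate 4 of each age. Fabp4 did not pass the test, at -0.29 ± 0.24 on the log2 scale in OE (edgeR adjusted p = 0.392) and -0.57 ± 0.24 in Ctrl (adjusted p = 0.0676). In Ctrl it was called lower by DESeq2 (adjusted p = 0.0241), by limma voom (-0.82, adjusted p = 0.00317), without Ctrl replicate 4 at 8 weeks (adjusted p = 0.0475) and without OE replicate 1 at 20 weeks (adjusted p = 0.0448). With 2 surrogate variables Fabp4 was instead at 0.45 in OE and 0.54 in Ctrl. With the mean of the mature adipocyte markers as a covariate it was at 0.94 in OE and 0.93 in Ctrl. None of these was called, and both covariates varied with age themselves.

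Acsl1, the main long-chain acyl-CoA synthetase of adipocytes (gene ID 14081, chr8:46471037-46536051), had 2142, 1451, 1553 and 829 CPM in OE at 20 weeks, against 1116, 851, 1265 and 999 CPM in OE at 8 weeks. The Ctrl libraries had 1283, 1104, 895 and 1557 CPM at 20 weeks, against 1039, 1531, 1303 and 834 CPM at 8 weeks. In OE the 20-week libraries held both the highest value and the lowest, so that the groups overlapped fully. The log2 fold change was 0.50 ± 0.26 in OE (edgeR adjusted p = 0.187) and 0.04 ± 0.26 in Ctrl (adjusted p = 0.916). Without all 5 libraries that stood apart it was 0.18 in OE (adjusted p = 0.657).

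**Figure D3:**
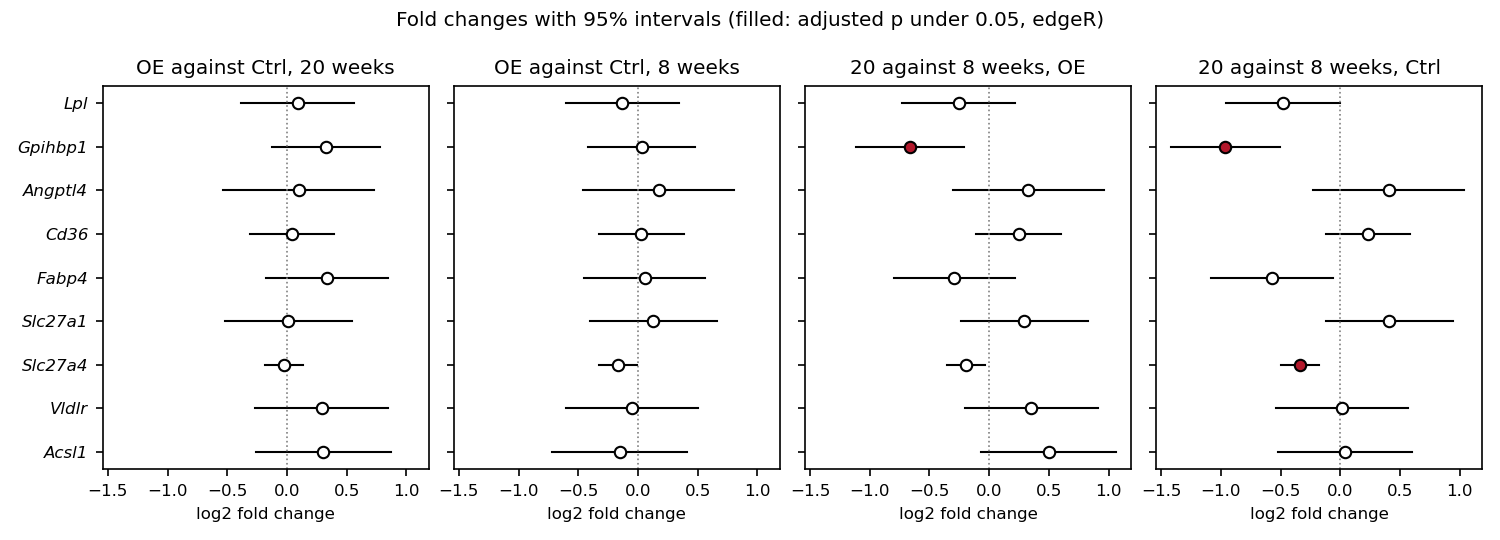
Log2 fold changes of the 9 genes with 95% intervals from the edgeR fit, for the contrasts of genotype and of age. Intervals of the genotype contrasts include 0 except that of Slc27a4 at 8 weeks. In the age contrasts Gpihbp1 is called lower in OE and Ctrl, and Slc27a4 in Ctrl. The age intervals of Slc27a4 in OE and of Lpl and Fabp4 in Ctrl also exclude 0, without a call.

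Markers of several cell types moved with age, beside 13.1% of all genes called higher and 9.91% lower in OE, and 19.6% and 21.3% in Ctrl. Of 10 mature adipocyte markers, 8 fell in OE and 9 in Ctrl at 20 against 8 weeks, with medians of -0.9998 and -1.32 on the log2 scale. Their summed level ranged from 6144 to 14581 CPM in OE and from 5103 to 10096 CPM in Ctrl at 20 weeks, against 15527 to 30885 CPM in OE and 20064 to 21832 CPM in Ctrl at 8 weeks. All 8 lipid-associated macrophage markers rose in both genotypes, with medians of 3.84 in OE and 4.45 in Ctrl, and their summed level was 2335 to 8556 CPM in OE and 3438 to 6855 CPM in Ctrl at 20 weeks, against 225 to 903 CPM in OE and 226 to 388 CPM in Ctrl at 8 weeks. Of 10 general macrophage markers, 9 rose in each genotype and 1 fell in OE. All 5 smooth muscle markers fell in both genotypes, with medians of -3.33 in OE and -4.30 in Ctrl, and their summed level was 182 to 384 CPM in OE and 119 to 218 CPM in Ctrl at 20 weeks, against 465 to 3710 CPM in OE and 527 to 3785 CPM in Ctrl at 8 weeks. Of 5 mesothelial markers, 4 fell in OE and 1 in Ctrl, and of 5 brown adipocyte markers 3 rose in each genotype, with medians of 1.14 in OE and 1.76 in Ctrl. Several of the 9 genes, Lpl, Cd36, Fabp4 and Acsl1 among them, are also transcribed in macrophages, and the part of macrophages in their totals was not tested. With the adipocyte list mean as a covariate, of whose variance age held 83.8%, the log2 fold change of Gpihbp1 was 0.39 in OE (edgeR adjusted p = 0.553) and 0.35 in Ctrl (adjusted p = 0.771), that of Slc27a4 in Ctrl was -0.24 (adjusted p = 0.753), and Acsl1 was called higher in OE (1.79, adjusted p = 0.00765) and in Ctrl (1.68, adjusted p = 0.0413).

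Relative to the adipocyte list mean of the same library, all 9 genes were higher at 20 weeks without overlap in both genotypes, as were 72.2% of all genes in OE and 82.3% in Ctrl. Relative to the endothelial list mean, Angptl4, Cd36, Vldlr and Acsl1 were higher without overlap in OE, as were 16.7% of all genes, and these 4 with Slc27a1 and Slc27a4 were higher in Ctrl, as were 56.3%. Relative to the macrophage list mean, Gpihbp1 and Slc27a4 were lower without overlap in OE, as were 58.7% of all genes, and all 9 were lower in Ctrl, as were 82.5%.

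**Figure D4:**
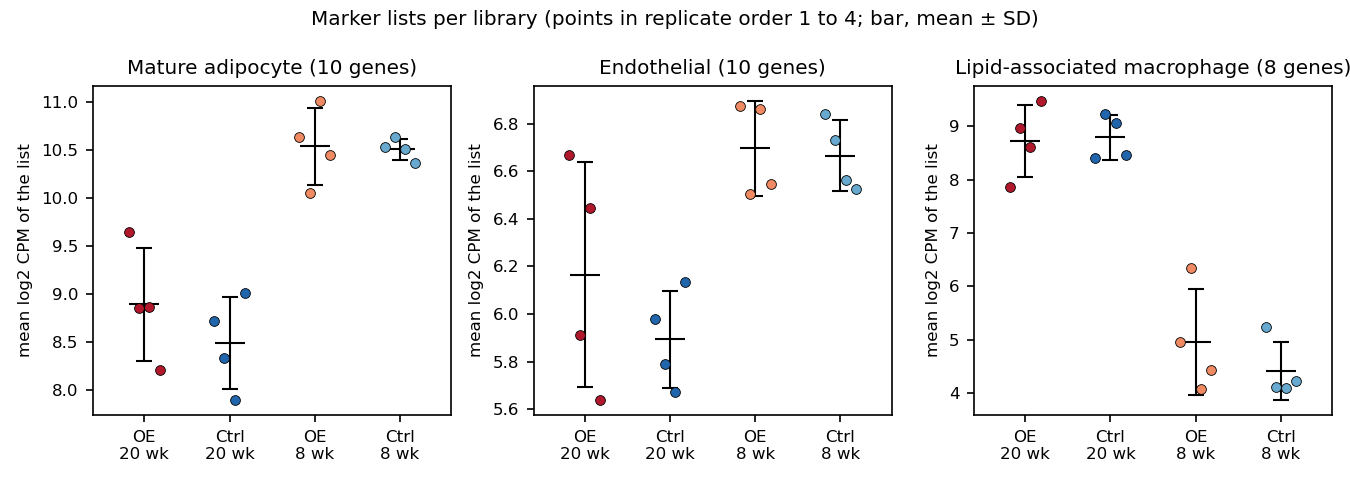
Mean log2 CPM of 10 mature adipocyte, 10 endothelial and 8 lipid-associated macrophage markers, 1 point per library and bars for mean ± SD of 4. Adipocyte and endothelial means are lower at 20 weeks and the lipid-associated macrophage mean is higher, in OE and in Ctrl, and the endothelial means of OE at 20 and 8 weeks overlap.

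The comparison of OE with Ctrl asked what adipocyte overexpression of LTA4H changed. For these 9 genes no difference passed the test at either age. At 20 weeks 0 of 9 were called, beside 0.0261% of all genes, and 8 log2 fold changes lay above 0 and 1 below. At 8 weeks 0 of 9 were called, beside 0.0208% of all genes, with 5 above 0 and 4 below, and averaged over both ages 0 of 9 were called, beside 0.0365% of all genes. By edgeR's unadjusted p under 0.05 there were 0, 1 and 0 of the 9 at 20 weeks, at 8 weeks and on average, and DESeq2 and limma voom called 0 in each. OE and Ctrl overlapped for all 9 genes at both ages, beside 2.73% of all genes without overlap at 20 weeks (1.24% higher, 1.49% lower) and 1.24% at 8 weeks (0.787% higher, 0.448% lower).

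The intervals, which are not adjusted for the number of genes, give the precision of these estimates. At 20 weeks the level in OE was 1.07 times that in Ctrl for Lpl (95% interval 0.768 to 1.48), 1.03 times for Cd36 (0.808 to 1.32), 1.26 times for Fabp4 (0.887 to 1.80), 1.26 times for Gpihbp1 (0.918 to 1.72), 1.23 times for Acsl1 (0.835 to 1.83) and 1.22 times for Vldlr (0.832 to 1.80). It was 1.01 times for Slc27a1 (0.698 to 1.46) and 1.07 times for Angptl4 (0.690 to 1.66). Angptl4 had the widest interval on the log2 scale at both ages, and at 8 weeks its estimate was 1.13 times (0.728 to 1.75). The adipocyte list mean overlapped at 20 weeks, at 8.20 to 9.65 log2 CPM in OE and 7.89 to 9.01 in Ctrl. With that mean as a covariate the log2 fold changes at 20 weeks were 0.017 for Fabp4, 0.030 for Gpihbp1, -0.071 for Acsl1 and 0.069 for Vldlr, against 0.34, 0.33, 0.30 and 0.29 without it. OE replicate 1, one of the libraries that stood apart, was the highest of its group for Fabp4, Gpihbp1, Acsl1, Angptl4 and Vldlr. Slc27a4 had the narrowest interval at 20 weeks, 0.983 times (0.879 to 1.098). At 8 weeks it was the one gene with an unadjusted p under 0.05, at 0.891 times the Ctrl level (0.798 to 0.996, unadjusted p = 0.0427, edgeR adjusted p = 1).

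Averaged over both ages, the estimates were 0.986 times for Lpl (95% interval 0.782 to 1.24), 1.03 times for Cd36 (0.863 to 1.22), 1.15 times for Fabp4 (0.893 to 1.47) and 0.936 times for Slc27a4 (0.865 to 1.01). The change of the genotype difference with age was called for 0 of the 9 genes and for 0% of all genes by edgeR, with 650 genes and 0 of the 9 at an unadjusted p under 0.05, and DESeq2 called 30 genes and 0 of the 9. Its estimate was highest for Acsl1, 0.46 ± 0.37 on the log2 scale, and Vldlr, 0.34 ± 0.37, and the adjusted p was 0.982 for both.

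Around these genes, 8 lists of 64 other genes of the pathway were counted, and 0 of them were called in any contrast of OE with Ctrl or in the interaction. With age, calls ran in both directions, beside 13.1% of all genes called higher and 9.91% lower in OE, and 19.6% and 21.3% in Ctrl. Of 12 tested genes of LPL maturation, cofactors and inhibitors (Apoa5 of the 13 had too few counts), 0 rose and 3 fell in OE, and 3 rose and 3 fell in Ctrl. Sort1, which encodes the sorting receptor sortilin, fell by 0.69 on the log2 scale in OE and by 0.89 in Ctrl. Apoc1, which encodes an apolipoprotein that inhibits LPL, fell by 0.99 in OE and by 1.52 in Ctrl, and Pcsk6, a proprotein convertase gene, fell by 0.99 in OE and by 1.04 in Ctrl. Apoc2, which encodes the activating cofactor of LPL, rose by 0.87 in Ctrl (edgeR adjusted p = 0.0295) from a low level, 2.96 ± 0.523 CPM at 20 weeks against 1.62 ± 0.335 CPM at 8 weeks (SD, n = 4 each). That call was lost without Ctrl replicate 1 or 3 at 20 weeks or 2 or 4 at 8 weeks (adjusted p 0.0534 to 0.0860), and that of Pcsk6 in OE without OE replicate 2, 3 or 4 at 20 weeks or 1 or 3 at 8 weeks (0.0501 to 0.0959).

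Of 7 lipoprotein receptors, 3 rose and 1 fell in each genotype. Among all genes, 13.1% were called higher and 9.91% lower in OE, and 19.6% and 21.3% in Ctrl. The scavenger receptor gene Msr1 rose by 2.03 on the log2 scale in OE and by 2.65 in Ctrl, Lrp1, a receptor for remnant lipoproteins, by 1.13 in OE and 1.57 in Ctrl, and Stab1, a scavenger receptor gene, by 0.78 in OE and 1.72 in Ctrl. Msr1 and Stab1 are known as macrophage genes, and the macrophage markers rose beside them. More macrophages and more RNA per cell cannot be told apart in bulk tissue. Lsr, the lipolysis-stimulated lipoprotein receptor gene, fell by 1.08 in OE and by 0.87 in Ctrl, and the Ctrl call was lost without Ctrl replicate 1, 2 or 3 at 20 weeks or 3 or 4 at 8 weeks (edgeR adjusted p 0.0631 to 0.132). In OE the Lsr call was lost without OE replicate 2, 3 or 4 at 20 weeks or 2 or 4 at 8 weeks (0.0520 to 0.0658), and that of Stab1 without OE replicate 2 at 20 weeks or 3 or 4 at 8 weeks (0.0528 to 0.0588).

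Of 10 close relatives of the fatty acid carriers, 2 were called in OE, both higher. Of all genes in OE, 13.1% were called higher and 23% in either direction. In Ctrl 4 of the 10 were called, Slc27a6 higher and the others lower. Of all genes in Ctrl, 19.6% were called higher, 21.3% lower and 40.9% in either direction. Of 3 tested other transport proteins (Slc27a5 had too few counts), Slc27a6 rose in both genotypes, by 2.099 on the log2 scale in OE and 1.78 in Ctrl, at 3.30 ± 1.42 CPM in OE and 3.23 ± 1.11 CPM in Ctrl at 20 weeks, against 0.768 ± 0.199 CPM in OE and 0.941 ± 0.414 CPM in Ctrl at 8 weeks. Slc27a2 fell in Ctrl, with counts of 7, 0, 0 and 0 at 20 weeks, against 0, 154, 573 and 1044 at 8 weeks. Of 7 tested other binding proteins (Fabp1, Fabp2, Fabp6 and Pmp2 had too few counts), Fabp5, the carrier that adipocytes share with macrophages, rose by 0.79 in OE (edgeR adjusted p = 0.0317), at 509 ± 15.2 CPM at 20 weeks against 296 ± 45.9 CPM at 8 weeks. In Ctrl Fabp5 did not pass, at 0.49 (adjusted p = 0.119), while Dbi, which encodes acyl-CoA binding protein, fell by 0.86, and Fabp9 fell with counts of 8, 0, 0 and 0 at 20 weeks, against 3, 98, 45 and 272 at 8 weeks. The Fabp5 call in OE was lost without OE replicate 2, 3 or 4 at 20 weeks or 2, 3 or 4 at 8 weeks (adjusted p 0.0508 to 0.0900), and the calls of Slc27a2 and Fabp9 in Ctrl without Ctrl replicate 2 or 3 at 20 weeks (0.0566 to 0.0586).

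Of 6 other long-chain acyl-CoA synthetases, Acsl3 and Acsl5 rose in OE, by 0.55 and 0.40 on the log2 scale, and Acsl5 rose in Ctrl by 0.48. Acsbg1 and Acsbg2, known from brain and testis, fell in Ctrl. The shares over all genes were 13.1% called higher in OE, and 19.6% higher and 21.3% lower in Ctrl. Acsbg1 had 73, 33, 58 and 45 counts at 20 weeks, against 15, 1509, 3327 and 3257 at 8 weeks, and Acsbg2 had 0 counts in all 4 Ctrl libraries at 20 weeks, against 0, 59, 23 and 148 at 8 weeks. In each of Slc27a2, Fabp9, Acsbg1 and Acsbg2 the 8-week Ctrl library with the lowest count was replicate 1, which stood apart. Slc27a2, Fabp9 and Acsbg2 were highest in replicate 4, which carried the most epididymal transcripts. Without both libraries with epididymal transcripts Slc27a2 was still called lower, while the adjusted p of Fabp9 was 0.0511 and that of Acsbg2 0.0733. Ctrl replicate 3 at 8 weeks, with 166 CPM of the epididymal markers, stayed in that fit. The Acsbg2 call was also lost without any 1 of the Ctrl replicates at 20 weeks or without Ctrl replicate 2 or 4 at 8 weeks (adjusted p 0.0509 to 0.0612), and that of Acsl5 in OE without OE replicate 2, 3 or 4 at either age (0.0506 to 0.0939).

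Of 8 genes of CD36 trafficking and caveolae, the membrane pits in which CD36 is taken up, 4 fell in OE, beside 9.91% of all genes called lower, and 7 in Ctrl, beside 21.3%. The 8 had medians of -0.51 and -0.71 on the log2 scale, against -0.03 and -0.05 over all genes tested. Cav1, which encodes the main caveolar coat protein, had 1880 ± 410 CPM in OE and 1450 ± 368 CPM in Ctrl at 20 weeks, against 3084 ± 647 CPM in OE and 3065 ± 621 CPM in Ctrl at 8 weeks (SD, n = 4 each). It fell by 0.71 in OE (edgeR adjusted p = 0.0340) and by 1.08 in Ctrl (adjusted p = 0.00222). Cav2 fell by 0.74 in OE and by 1.20 in Ctrl, Ehd2, a caveolar neck protein gene, by 0.77 and 1.11, and Cavin2 by 0.75 in OE. Zdhhc5, whose product palmitoylates CD36, fell by 0.32 in Ctrl. Caveolae are plentiful in adipocytes and endothelial cells, whose markers fell beside them. Fewer such cells and less RNA per cell cannot be told apart in bulk tissue. In OE the calls of Cav1, Cav2 and Cavin2 were lost without OE replicate 2, 3 or 4 at 20 weeks or 1, 3 or 4 at 8 weeks, and that of Ehd2 without the same libraries other than replicate 4 at 8 weeks, with adjusted p between 0.0507 and 0.109.

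Of 7 genes of endothelial fatty acid transfer, 3 fell in OE and 4 in Ctrl, beside 9.91% and 21.3% of all genes called lower. Their medians were -0.46 and -0.92. Vegfb, a growth factor gene linked in mice to endothelial fatty acid uptake, fell by 0.90 in OE and by 1.19 in Ctrl, and its receptor gene Flt1 by 0.46 in OE and 0.69 in Ctrl. Apln, which encodes apelin, fell by 0.99 in OE and by 1.38 in Ctrl, and Meox2, which encodes an endothelial transcription factor, by 0.92 in Ctrl. Of 8 PPAR and partner genes, 2 fell in OE and 6 in Ctrl, beside the same shares of all genes, with medians of -0.51 and -0.80. Pparg, the adipocyte regulator whose known targets include Lpl, Cd36, Fabp4, Angptl4 and Gpihbp1, had 125 ± 19.0 CPM in OE and 95.8 ± 13.5 CPM in Ctrl at 20 weeks, against 210 ± 38.2 CPM in OE and 209 ± 32.1 CPM in Ctrl at 8 weeks. It fell by 0.75 in OE (edgeR adjusted p = 0.00404) and by 1.13 in Ctrl (adjusted p = 0.000156). Its partner gene Rxra fell by 0.55 in OE and by 0.80 in Ctrl, and Cebpa and Ppara by 0.79 and 1.18 in Ctrl. In OE the call of Apln was lost without OE replicate 2, 3 or 4 at 20 weeks or 1 or 4 at 8 weeks (adjusted p 0.0558 to 0.114), and that of Rxra without OE replicate 2 or 4 at 20 weeks or 3 at 8 weeks (0.0533 to 0.0626). The Flt1 call in OE was lost without OE replicate 2, 3 or 4 at 20 weeks or 1, 3 or 4 at 8 weeks, and without Ctrl replicate 1 or 2 at 20 weeks or 2 at 8 weeks, which share its fit (0.0546 to 0.139). In Ctrl that of Meox2 was lost without Ctrl replicate 3 at 20 weeks or 1 at 8 weeks (0.0607 and 0.0503).

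**Figure D5:**
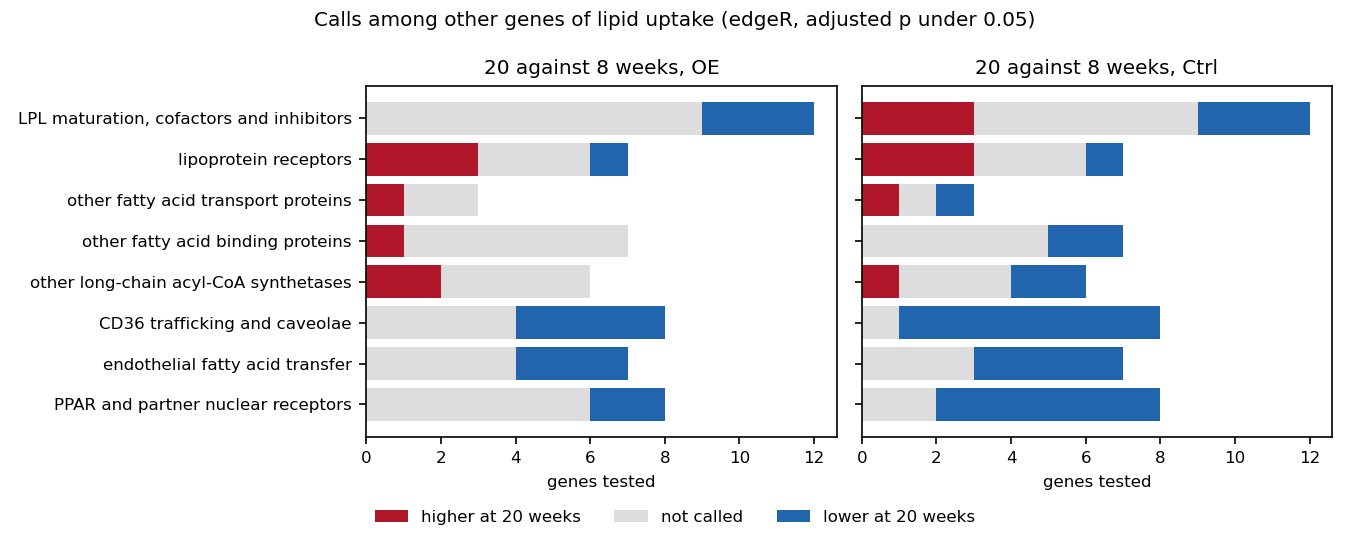
Number of tested genes of 8 lists called higher (red), not called (grey) or lower (blue) at 20 against 8 weeks in OE and in Ctrl, at an edgeR adjusted p under 0.05. CD36 trafficking and caveolae shows 4 lower of 8 in OE and 7 of 8 in Ctrl, and lipoprotein receptors 3 higher and 1 lower of 7 in each.

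Among themselves, the genes did not follow a single pattern over the 16 libraries. The pair most alike was Lpl and Slc27a4, with a root mean square difference of 0.226 log2 units between their centred log2 CPM, followed by Gpihbp1 and Fabp4 at 0.244 and Cd36 and Vldlr at 0.270. The pair least alike was Gpihbp1 and Slc27a1, at 0.803. By the same measure, the nearest of all other genes were Hadh, a gene of fatty acid oxidation, for Fabp4 (0.0669), Erg, an endothelial transcription factor gene and 1 of the 10 endothelial markers, for Gpihbp1 (0.130), Timm23, a mitochondrial import gene, for Lpl (0.104), Arpp19 for Slc27a4 (0.0654), Rab5if for Cd36 (0.0887), Tmem135 for Vldlr (0.112), Echdc1 for Acsl1 (0.191), P3h3 for Slc27a1 (0.201) and Slc22a4 for Angptl4 (0.203). Next after these came Apmap and Dgat1 for Fabp4, Gstk1 and Gpr4 for Gpihbp1, and Acadl and Arxes1 for Acsl1. The libraries share age groups and cell composition, and the neighbours changed without the 5 libraries that stood apart.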

How the data were processed

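Epididymal white adipose tissue of male mice was profiled with TruSeq stranded mRNA libraries, 16 in all. The authors used bcl2fastq 2.20.0, Trimmomatic, HISAT2 2.1.0 and StringTie 2.1.3b on mm10, per the submitters' processing notes. Their deposited table gives whole-number read counts of 45777 genes, which were tested as given. The authors' TPM values (scaled to transcript length and library) were used only to compare levels between genes, and the FPKM values deposited by the authors were not tested. The annotation and the strand setting of the counting are not given in the sources used here.

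The filter filterByExpr at a minimum count of 10 left 19189 genes, and library sizes were scaled by TMM. In edgeR 4.0.16 (R 4.3.3) the 4 groups of 4 libraries shared 1 robust quasi-likelihood fit without a block (12 residual degrees of freedom), from which 6 contrasts were taken with Benjamini-Hochberg adjustment over all genes at 0.05. Adjusted p-values without another name come from it, and the error given with a log2 fold change is its standard error. Log2 CPM used a prior count of 2. The fit was tested on simulated data with 200 changed genes. DESeq2 1.42.0, limma 3.58.1 (voom with quality weights), sva 3.50.0, other scaling, no filter, a replicate block, a cell-content covariate and left-out libraries were alternatives.

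All 9 genes are named in every contrast. Of each pathway list, up to 4 called genes with the smallest adjusted p are named, and Fabp5 in Ctrl was added after its value was seen. The 3 genes of most like pattern were sought where the mean log2 CPM over the 16 libraries reached 1. The 9 genes and the lists were chosen with earlier results of these data known. Promoter windows and positions come from RefSeq (GRCm38.p6).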

Additional observations from a re-analysis of the deposited data

How the results depend on the processing

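Over 28 alternative settings for OE against Ctrl at each age, and 27 for their average and the interaction, 0 of the 9 genes was called. The count of all genes called was 15 at 8 weeks, 59 at 20 weeks, 33 on average and 30 for the interaction with DESeq2, 12 at 8 weeks and 20 at 20 weeks with voom, 8 at 8 weeks with only the groups compared, 7 at 8 weeks with 2 surrogate variables, 3 at 20 weeks without OE replicate 1 at 20 weeks, and 1 for the interaction without all 5 libraries that stood apart. With age in OE, members called lower numbered 2 with DESeq2, 2 with voom (7648 genes in all), 0 with only the groups compared, 0 without both 8-week libraries numbered 1, 3 without both libraries with epididymal transcripts and 2 without all 5 (7378 genes). With age in Ctrl, 4 were called lower with DESeq2, with voom, without the epididymal pair and without all 5, and Slc27a2 and Acsbg1 lost their calls with voom (adjusted p = 0.236 and 0.0785). In Ctrl 1 member, Angptl4, was called higher without both 8-week libraries numbered 1 and without all 5.

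Leaving out 1 library at a time gave 0 to 2 members lower and 0 higher in OE (2733 to 5786 genes) and 2 to 4 lower and 0 to 1 higher in Ctrl (5483 to 8105 genes). It gave 4 to 9 genes at 8 weeks, 3 to 6 at 20 weeks, 6 to 11 on average and 0 to 3 for the interaction. The ratios of TPM, and leaving out libraries for them, were chosen after seeing the data.

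Both covariates ended the age calls of Gpihbp1 and Slc27a4. Age held 51.8% and 24.3% of the variance of the 2 surrogate variables and 83.8% of that of the adipocyte marker mean. With the surrogate variables, 2 members were called higher and 0 lower in OE (929 genes) and in Ctrl (196 genes), namely Vldlr, at 0.995 in OE and 0.978 in Ctrl on the log2 scale, and Acsl1, at 1.31 in OE and 1.35 in Ctrl. Among the named genes called with age in Ctrl, Slc27a2 (0.041), Acsl5 (-0.046), Acsbg1 (1.45), Cebpa (0.12) and Ppara (0.065) then changed sign. Lpl and Fabp4, which were not called, also turned from negative to positive. Lpl was then at 0.16 in OE and 0.15 in Ctrl, and Fabp4 at 0.45 in OE and 0.54 in Ctrl. With the adipocyte covariate, 1 member, Acsl1, was called higher and 0 lower in OE (60 genes) and in Ctrl (27 genes), at 1.79 and 1.68. Lpl and Fabp4, not called in either fit, turned positive here too. Lpl was at 0.20 in OE and 0.07 in Ctrl, and Fabp4 at 0.94 in OE and 0.93 in Ctrl. Among the named genes called with age, in OE the sign changed for Gpihbp1 (0.39), Sort1 (0.054), Apoc1 (0.023), Pcsk6 (0.43), Stab1 (-0.040), Ehd2 (0.31), Cav2 (0.29), Cavin2 (0.45), Cav1 (0.32), Vegfb (0.23), Apln (0.093), Flt1 (0.26) and Rxra (0.12). In Ctrl it changed for Gpihbp1 (0.35), Sort1 (0.023), Pcsk6 (0.66), Dbi (0.31), Cav2 (0.046), Ehd2 (0.22), Cav1 (0.18), Vegfb (0.19), Flt1 (0.17), Meox2 (0.24), Rxra (0.013), Cebpa (0.25) and Ppara (0.18).

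Same-numbered libraries of one age correlated at -0.239 to 0.826 in their deviations from the group means, above 0.1 in 2 of 8 pairs. The value of 0.826 was that of OE and Ctrl replicate 1 at 8 weeks, which both stood apart. Whether same-numbered libraries were handled together was not tested. With the replicate block 3810 genes were called with age in OE and 6545 in Ctrl, 4 at 20 weeks, 4 at 8 weeks and 6 on average for OE against Ctrl, and it changed no call among the 9 genes, while Fabp9 and Acsbg2 lost theirs in Ctrl (adjusted p = 0.0652 and 0.0590). With 4 libraries a group, the 95% intervals give the precision of each fold change and are not adjusted for the number of genes.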

Other observations

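The 9 genes took 1.83% to 2.90% of all counts in a library. None of the 36 sets of 4 libraries, 1 for each gene and group, held a library far enough from the other 3 to be set apart by Dixon's criterion, where chance gives 1.8 on average. The coefficient of variation was lower at 20 than at 8 weeks for Lpl, Angptl4, Cd36, Slc27a1, Slc27a4 and Vldlr in both genotypes, at 10.8% in OE and 17.0% in Ctrl at 20 weeks against 30.5% in OE and 53.4% in Ctrl at 8 weeks for Angptl4. It was higher at 20 weeks in both genotypes for Gpihbp1 (29.2% in OE and 18.8% in Ctrl at 20 weeks, 22.2% in OE and 9.81% in Ctrl at 8 weeks) and for Fabp4 (28.0% in OE and 21.4% in Ctrl at 20 weeks, 23.9% in OE and 16.8% in Ctrl at 8 weeks). For Acsl1 it was higher at 20 weeks in OE (36.0% at 20 weeks, 16.6% at 8 weeks) and lower in Ctrl (23.2% and 25.9%). No share over all genes was computed.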
